A study of Mus musculus with 24 samples.

Results

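The 8 genes described here encode enzymes of cholesterol biosynthesis (Hmgcs1, Idi1, Fdps, Fdft1, Sqle, Lss, Cyp51 and Dhcr7). They were taken by symbol from the 36333 genes of an RNA sequencing table of mouse brain, and all 8 were expressed highly enough to be tested. The table holds 1 library for each of 24 male mice at 5 days post-injury (dpi), aged 12-16 weeks and labelled C57BL6N, whereas the methods of the study name C57BL/6JRj. Traumatic brain injury (TBI) was induced by controlled cortical impact, a piston strike on the exposed cortex, in 4 groups of 5 mice. These mice received vehicle, PLX3397 (an inhibitor of the receptor CSF1R, on which microglia depend, at 290 mg/kg of chow), Anakinra (a blocker of the interleukin-1 receptor IL1R1, at 100 mg/kg, injected subcutaneously), or PLX3397+Anakinra. The 4 sham mice had anesthesia and a skin incision but neither craniotomy nor impact, and according to the methods they were given vehicle, so that the opened skull and the impact cannot be told apart in any comparison with sham. PLX3397 chow started after the impact and was eaten freely, so that the dose taken up by each mouse is not given.

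Cholesterol in the brain is made locally, because lipoproteins of the blood do not cross the blood-brain barrier. Acetyl-CoA is built up to mevalonate, mevalonate is turned into isoprenoid units, pairs of farnesyl units are joined to squalene, and squalene is closed into lanosterol, which is trimmed to cholesterol. Nearly all genes of this pathway are switched on together by the transcription factor SREBP2 when sterols in the endoplasmic reticulum are low, and they are turned down when cells take up cholesterol. Neurons, astrocytes and oligodendrocytes all run the pathway, and phagocytes that clear myelin take up cholesterol and export it through ABC transporters and apolipoprotein E.

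In the GRCm38 mouse genome (GENCODE vM21), Hmgcs1 lies at chr13:119690379-119708260 on the plus strand, Idi1 at chr13:8885501-8892451 (plus), Fdps at chr3:89093588-89101959 (minus) and Fdft1 at chr14:63145150-63179578 (minus). Sqle lies at chr15:59315077-59331192 (plus), Lss at chr10:76531588-76557138 (plus), Cyp51 at chr5:4081145-4104746 (minus) and Dhcr7 at chr7:143823145-143848410 (plus). All are protein-coding, and they share a pathway rather than a locus. RefSeq windows of 250 bases before the start (GRCm38.p6) were found for 5 of the 8 genes, and none was found for Fdps, Fdft1 and Sqle. The upstream sequences of Hmgcs1 (chr13:119690101-119690350) and Lss (chr10:76531355-76531587, ended before the first annotated exon) are shown as one window with and one without a match to the sterol regulatory element. Capitals mark the sterol regulatory element TCACNCCAC and the core of the NF-Y site, CCAAT, whose factor acts beside SREBP2. Cores on the other strand read ATTGG in these lines.
Hmgcs1: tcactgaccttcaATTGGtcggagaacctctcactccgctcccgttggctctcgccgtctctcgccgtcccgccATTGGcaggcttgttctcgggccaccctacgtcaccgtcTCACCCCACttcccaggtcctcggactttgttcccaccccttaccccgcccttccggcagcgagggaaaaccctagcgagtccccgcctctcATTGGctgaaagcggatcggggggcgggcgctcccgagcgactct
Lss: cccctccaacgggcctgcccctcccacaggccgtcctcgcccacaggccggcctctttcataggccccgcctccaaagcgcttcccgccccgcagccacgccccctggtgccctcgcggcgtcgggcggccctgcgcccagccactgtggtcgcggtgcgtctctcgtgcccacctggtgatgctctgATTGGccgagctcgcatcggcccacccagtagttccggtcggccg
Both strands were searched, and the marked motifs do not overlap. The Hmgcs1 window holds 1 match to the sterol regulatory element, 137 bases before the RefSeq start, and 3 CCAAT cores. The Lss window holds no match to the element and 1 CCAAT core, 62 bases before the RefSeq start. For Lss that start lies past the GENCODE start given above, so that the printed line ends short of it. The windows of Idi1, Cyp51 and Dhcr7 hold no match to the element either. In the full windows of Idi1 and Cyp51, 2 cores and 1 core were found. The parts of these windows before the GENCODE start (145 and 201 bases) hold 0 cores, and the part of Idi1 lies within annotated exons. Dhcr7 has 3 RefSeq starts, of which 1 has 2 CCAAT cores and the others have none. Over all 32851 RefSeq windows of this length, 1.05% hold TCACNCCAC and 33.8% hold CCAAT, so that a CCAAT core alone is common. These matches describe letters and not bound sites.

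Levels are given in TPM, a unit of transcript abundance whose values correct for gene length and add up to 1000000 in each library, so that they can be compared between genes. The methods state that the mapping software calls this unit CPM. Whether the values are corrected for gene length cannot be read from their sum, so comparisons between genes rest on the unit as named. Read counts and library totals are not part of the tables used here, so the depth is unknown and every error is a spread between mice. Each difference between groups is a log2 difference of TPM + 1 from limma with its standard error (SE). A gene was called when its p, adjusted by the Benjamini-Hochberg method over all 17267 genes tested, was below 0.05. All animals of the vehicle group, and no others, carry the letter B in their label. Its meaning is not given, and if it marks a batch, that batch and the vehicle group cannot be told apart. In bulk RNA, fewer cells of a type and less RNA per cell cannot be told apart either. Defining markers of neurons, astrocytes, oligodendrocytes and microglia were above 0 in every mouse, with the tissue labelled as cortex and described in the methods as a quadrant that also holds striatum, hippocampus and thalamus. Vehicle mouse J19B had the lowest Hmgcs1, Idi1, Fdps, Fdft1, Sqle, Cyp51 and Dhcr7 of its group and touches several results, which are therefore also given without it.

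All 8 enzymes fell after TBI, and 4 of them rose with PLX3397 and 7 with PLX3397+Anakinra over vehicle. Their summed level was 552 ± 24.8 TPM (SD, n = 4) in sham mice and 401 ± 35.1 TPM (n = 5) in vehicle-treated TBI mice. It stood at 456 ± 24.8 TPM with PLX3397, 432 ± 10.9 TPM with Anakinra and 471 ± 33.8 TPM with PLX3397+Anakinra (n = 5 each). The 3 drug groups lay between vehicle and sham for each enzyme, except that the mean of Idi1 was 38.5 TPM with Anakinra and 38.6 TPM with vehicle.

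**Figure D1:**
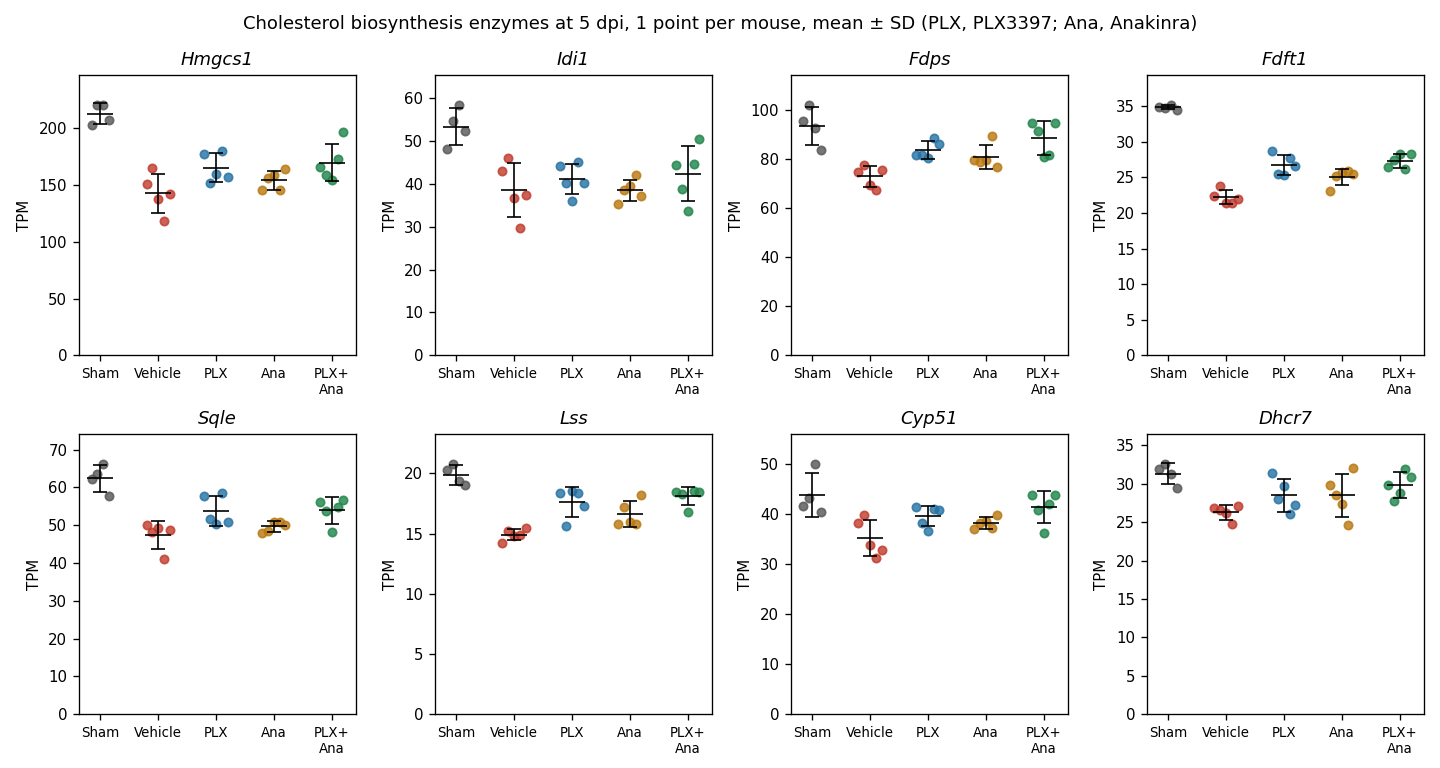
Level of each enzyme in TPM (vertical axis from 0) in every mouse, by group (PLX, PLX3397; Ana, Anakinra), with 1 point per mouse and bars for mean ± SD (sham n = 4, other groups n = 5). Sham mice lie above all vehicle mice in all 8 panels, and the drug groups lie mostly in between.

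The injury comparison asks how TBI with vehicle differed from sham. All 8 enzymes were called lower, and none of the 8 had a vehicle mouse at or above the lowest sham mouse. Over all genes tested, 27.7% were called lower and 54.3% were called in either direction, and 21% were lower without overlap of the groups, so that a fall in itself was common at 5 dpi. The median difference of the 8 enzymes was -0.39 on the log2 scale, against -0.01 over all genes tested. Differences ranged from -0.63 for Fdft1 to -0.24 for Dhcr7. As a percentage of the sham mean, vehicle mice kept 63.8% of Fdft1, 67.2% of Hmgcs1, 72.3% of Idi1, 75.1% of Lss, 75.9% of Sqle, 78.1% of Fdps, 80.4% of Cyp51 and 84.0% of Dhcr7. Thus Cyp51 and Dhcr7, the last of these 8 in the pathway, had the smallest falls, whereas the order along the pathway was otherwise not even. This order is one of the 8 chosen enzymes alone, since others that act between Cyp51 and Dhcr7, read below, both fell and rose. No ratio of group means among the 5 groups exceeded 1.57, the value of Fdft1. By the volcano criteria of the study, which ask for a ratio above 2 and a difference above 4 TPM at an unadjusted p below 0.05, 0 of the 8 enzymes therefore passed, against 5.26% of all genes for vehicle versus sham.

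Hmgcs1, the cytosolic synthase that condenses acetyl units to HMG-CoA, the precursor of mevalonate, was the most abundant of the 8. Its level was 203, 220, 221 and 208 TPM in the sham mice and 151, 165, 138, 119 and 142 TPM in the vehicle mice. The highest vehicle mouse was thus well below the lowest sham mouse, and the fall was -0.58 on the log2 scale (SE 0.08, adjusted p = 5.1e-07, limma). With PLX3397 the 5 mice had 178, 152, 160, 180 and 157 TPM, and with Anakinra 146, 156, 159, 146 and 165 TPM. With PLX3397+Anakinra they had 166, 159, 155, 173 and 197 TPM. Only mouse J17 of the combination, at 197 TPM, came close to the sham range, and each drug group overlapped vehicle. Hmgcs1 rose with PLX3397+Anakinra over vehicle (0.25 on the log2 scale, SE 0.07, adjusted p = 0.016, limma), whereas PLX3397 (0.21, adjusted p = 0.058) and Anakinra (0.12, adjusted p = 0.52) did not pass. The difference with PLX3397 passed in 5 of 32 alternatives, namely rescaled TPM (adjusted p = 0.034), library weights (adjusted p = 0.021) and the fits without vehicle mouse J17B (adjusted p = 0.011), PLX3397 mouse J02 (adjusted p = 0.042) or combination mouse J17 (adjusted p = 0.040, all limma). All 3 drug groups were below sham without overlap, with adjusted p from 1.4e-05 to 0.0012 in limma.

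Idi1 and Fdps make the isoprenoid units. Idi1, the isomerase of isopentenyl diphosphate, varied most between mice of the same group. It was at 48.0, 54.6, 58.4 and 52.2 TPM in sham mice and at 43.1, 46.0, 36.8, 29.6 and 37.3 TPM in vehicle mice. These groups did not overlap, although the gap between them was only from 46.0 to 48.0 TPM, and the fall was -0.47 (SE 0.10, adjusted p = 0.00052, limma). The drug groups spanned 36.1 to 45.0 TPM with PLX3397, 35.4 to 41.9 TPM with Anakinra and 33.6 to 50.4 TPM with PLX3397+Anakinra. None of the 3 differed from vehicle by the test, with differences of 0.10 (95% confidence interval -0.10 to 0.30), 0.01 (-0.19 to 0.21) and 0.13 (-0.07 to 0.34). All 3 were called lower than sham, with differences from -0.46 to -0.34.

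Fdps, the synthase of farnesyl diphosphate, which also feeds protein prenylation, was at 95.4, 102, 92.6 and 83.8 TPM in sham mice. Vehicle mice had 74.9, 77.7, 69.7, 67.3 and 75.6 TPM, all below sham (-0.35, SE 0.06, adjusted p = 2.6e-05, limma). With PLX3397 the values were 81.7, 81.5, 80.6, 88.6 and 86.4 TPM, and with PLX3397+Anakinra they were 94.8, 91.4, 80.9, 81.7 and 94.6 TPM. Every mouse of both groups was above all vehicle mice, and 3 of the 5 combination mice were within the sham range. Fdps rose with PLX3397 (0.20, SE 0.06, adjusted p = 0.027, limma) and with PLX3397+Anakinra (0.28, SE 0.06, adjusted p = 0.0012, limma). With Anakinra it was at 79.5, 78.8, 79.5, 89.5 and 76.7 TPM. Mouse J21 stood apart at 89.5 TPM, and the difference from vehicle did not pass (0.14, adjusted p = 0.29). PLX3397+Anakinra was not called different from sham (-0.08, 95% confidence interval -0.20 to 0.05).

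Fdft1, squalene synthase, takes the step that commits farnesyl units to sterols, and it showed the clearest separation of groups. The sham mice had 34.9, 34.8, 35.2 and 34.5 TPM, and the vehicle mice had 22.4, 23.8, 21.5, 21.4 and 22.01 TPM. Both groups were tight and far apart, with a fall of -0.63 (SE 0.05, adjusted p = 2.3e-11, limma). With PLX3397 the values were 28.7, 25.5, 25.3, 27.8 and 26.5 TPM, with Anakinra 23.1, 25.1, 25.7, 25.9 and 25.5 TPM, and with PLX3397+Anakinra 26.5, 27.4, 28.3, 26.2 and 28.3 TPM. No treated mouse came near sham, and all mice with PLX3397, alone or combined, were above all vehicle mice. Fdft1 rose with PLX3397 (0.26, SE 0.04, adjusted p = 0.00019, limma) and with PLX3397+Anakinra (0.29, SE 0.04, adjusted p = 2.3e-05, limma). With Anakinra, 4 of 5 mice were above all vehicle mice, with mouse J05 at 23.1 TPM within the vehicle range. That difference of 0.17 (SE 0.04) had an adjusted p of 0.099 in limma. It passed, at an adjusted p of 0.019, only when libraries were weighted by their spread. All combination mice were above all Anakinra mice, which held for 3.94% of all genes, but the difference of 0.12 did not pass (adjusted p = 0.067).

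Sqle, squalene epoxidase, a rate-limiting step of the sterol branch, was at 62.2, 63.4, 66.3 and 57.8 TPM in sham mice. In vehicle mice it was at 49.9, 48.2, 49.3, 40.9 and 48.6 TPM. The value of 40.9 TPM of mouse J19B stood apart from the other 4, and all 5 were below sham (-0.39, SE 0.06, adjusted p = 5.2e-06, limma). With PLX3397 the mice had 57.6, 51.5, 50.5, 58.4 and 50.8 TPM, with Anakinra 48.0, 48.5, 51.0, 50.9 and 50.2 TPM, and with PLX3397+Anakinra 56.2, 53.7, 48.1, 54.8 and 56.7 TPM. All PLX3397 mice were above all vehicle mice, by as little as 50.5 against 49.9 TPM, whereas 1 combination mouse was within the vehicle range. Sqle rose by 0.18 with PLX3397 (SE 0.06, adjusted p = 0.044) and by 0.18 with PLX3397+Anakinra (SE 0.06, adjusted p = 0.026, both limma). The PLX3397 call was lost in 17 of 32 alternatives. With Anakinra the difference was 0.07 (95% confidence interval -0.05 to 0.19).

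Lss, lanosterol synthase, closes the ring system of the sterols and was the least abundant of the 8. Sham mice had 20.3, 20.8, 19.3 and 19.03 TPM, and vehicle mice had 14.2, 15.2, 14.8, 14.9 and 15.4 TPM. The spread of the vehicle mice was small, and the fall was -0.39 (SE 0.06, adjusted p = 1.6e-06, limma). The values were 18.4, 15.6, 18.6, 18.4 and 17.2 TPM with PLX3397, 15.8, 17.2, 15.9, 15.8 and 18.2 TPM with Anakinra, and 18.4, 18.3, 16.8, 18.5 and 18.4 TPM with PLX3397+Anakinra. All 15 drug-treated mice were above all vehicle mice and below all sham mice. Lss rose with PLX3397 (0.23, SE 0.05, adjusted p = 0.0049, limma) and PLX3397+Anakinra (0.26, SE 0.05, adjusted p = 0.00071, limma), whereas the difference with Anakinra, 0.14, did not pass (adjusted p = 0.24). Against sham, PLX3397+Anakinra stood at -0.13 with an adjusted p of 0.072, although the groups did not overlap.

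Cyp51 removes a methyl group from lanosterol, and Dhcr7 makes the last reduction to cholesterol. Cyp51 was at 41.5, 43.2, 50.01 and 40.3 TPM in sham mice and at 38.3, 39.7, 33.8, 31.3 and 32.8 TPM in vehicle mice. The highest vehicle mouse was just below the lowest sham mouse (-0.31, SE 0.07, adjusted p = 0.00055, limma). The combination mice had 43.8, 40.7, 36.2, 42.0 and 43.8 TPM, with 4 of 5 above all vehicle mice, and Cyp51 rose by 0.23 over vehicle (SE 0.07, adjusted p = 0.016, limma). It ranged from 36.6 to 41.3 TPM with PLX3397 (0.17, adjusted p = 0.11) and from 36.9 to 39.7 TPM with Anakinra (0.12, adjusted p = 0.46). Dhcr7 was at 32.0, 32.6, 31.2 and 29.4 TPM in sham mice and at 26.8, 26.6, 26.2, 24.7 and 27.2 TPM in vehicle mice (-0.24, SE 0.06, adjusted p = 0.0020, limma). Its values with PLX3397+Anakinra were 29.8, 27.7, 28.8, 31.9 and 30.9 TPM, all above vehicle, and it rose by 0.18 (SE 0.06, adjusted p = 0.042, limma). This call was lost in 8 of 32 alternatives, the most of the 7 calls of the combination, namely with no filter on low values and without vehicle mouse J18B, J19B or J20B or combination mouse J03, J09, J10 or J17 (adjusted p from 0.052 to 0.11, limma). With PLX3397 it ranged from 26.1 to 31.5 TPM (0.11, adjusted p = 0.28), and with Anakinra from 24.6 to 32.1 TPM (0.11, adjusted p = 0.47).

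The drug comparisons ask how each treatment differed from vehicle after TBI, and all 3 share the same 5 vehicle mice. PLX3397 was called higher for 4 of the 8 enzymes (Fdps, Fdft1, Sqle and Lss), against 3.23% called higher and 9.89% called in all over the genes tested, with a median difference of 0.19 against 0.01. For these 4 the groups did not overlap, which held for 1.98% of all genes in the higher direction. Anakinra was called for none (limma), against 0.116% over all genes. At an unadjusted p below 0.05 it passed for 3 (Fdps, Fdft1 and Lss), against 12.4% of all genes, and Lss alone did not overlap (1.14% of all genes were higher without overlap). The median difference was 0.12, against -0.02 over all genes. PLX3397+Anakinra was called higher for 7 of the 8, all but Idi1, against 7.88% called higher and 17.5% called in all, with a median of 0.24 against 0.01. Fdps, Fdft1, Lss and Dhcr7 did not overlap vehicle there, against 4.09% of all genes in the higher direction. The volcano criteria were met by 0 of the 8 in all 3 comparisons, against 1.02%, 0.18% and 1.65% of all genes.

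Single mice moved these counts. Without vehicle mouse J19B, the calls were 2 of 8 for PLX3397 (Fdft1 and Lss) and 3 of 8 for PLX3397+Anakinra (Fdps, Fdft1 and Lss), with 7.33% and 13% of all genes called. The count for PLX3397 was 2 also without vehicle mouse J18B or without PLX3397 mouse J19, and 6 without vehicle mouse J17B. Without combination mouse J17, 4 calls remained for PLX3397+Anakinra (Fdps, Fdft1, Lss and Cyp51). Fdft1 and Lss were called for both treatments whichever single mouse was left out.

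**Figure D2:**
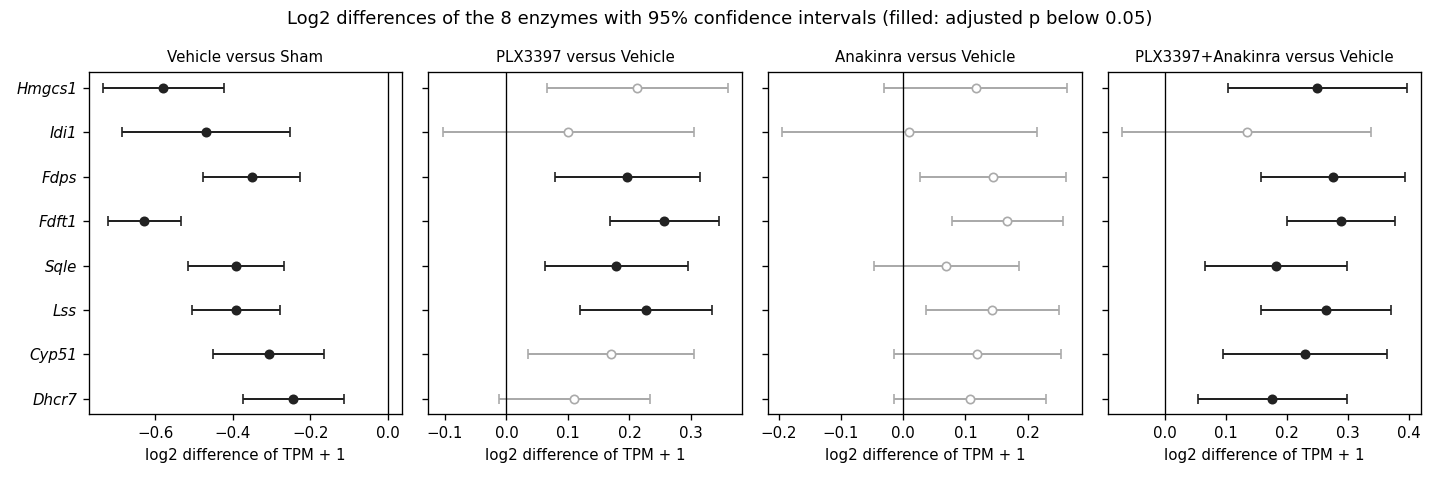
Log2 difference of TPM + 1 for each enzyme (points) with its 95% confidence interval from limma (bars) in 4 comparisons, filled black where the adjusted p was below 0.05 and open grey where it was not. Horizontal scales differ between the panels. All 8 points are left of 0 for vehicle versus sham, and 4, 0 and 7 are filled for PLX3397, Anakinra and PLX3397+Anakinra versus vehicle.

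Between the combination and each single drug no enzyme was called, and PLX3397 was not tested against Anakinra. PLX3397+Anakinra differed from PLX3397 by 0.00 to 0.08, with the lowest adjusted p at 0.86 for Fdps (limma), and the sign for Sqle turned when TPM were rescaled between libraries. None of the 8 passed at an unadjusted p below 0.05, against 6.71% of all genes at that p and 0.151% at the adjusted one. The 95% confidence intervals of these 8 differences reach from -0.17 to 0.24. From Anakinra the combination differed by 0.07 to 0.13, and none was called (limma), against 12.8% of all genes. Here 3 of the 8 (Fdps, Fdft1 and Lss) passed at an unadjusted p below 0.05, against 27.9% of all genes. The interaction, which compares the combination with the sum of both single effects on the log2 scale, was called for none of the 8 and for 0 of 17267 genes (limma). It was negative for 7 of the 8, with a median of -0.07 against 0.02 over all genes, and only Fdft1 (-0.14, SE 0.06) passed at an unadjusted p below 0.05, against 8.08% of all genes.

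None of the treated groups matched sham for the whole set. Against sham, 6 of the 8 were called lower with PLX3397 (all but Cyp51 and Dhcr7), 7 with Anakinra (all but Dhcr7) and 4 with PLX3397+Anakinra (Hmgcs1, Idi1, Fdft1 and Sqle). Over all genes, 22.5%, 29.2% and 18.1% were called lower in these comparisons, which share the 4 sham mice. By the volcano criteria 0 of the 8 passed in any of them, against 3.66%, 5.29% and 2.9% of all genes. As a percentage of the sham mean, the combination stood at 78.5% for Fdft1, 79.4% for Idi1, 79.8% for Hmgcs1 and 86.3% for Sqle. It stood at 91.2% for Lss, 94.5% for Cyp51, 94.9% for Fdps and 95.3% for Dhcr7. The gap between sham and vehicle means was thus closed by 25.5% for Idi1, 38.4% for Hmgcs1, 40.6% for Fdft1 and 43.1% for Sqle, and by 64.5% to 76.5% for the other four. Over the 5 groups, limma's F-test called all 8 enzymes, against 51.9% of all genes, with F from 4.25 for Dhcr7 to 49.7 for Fdft1.

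A list of 13 other enzymes of the pathway, from the steps between acetyl-CoA and cholesterol, showed mostly the same direction. After TBI 9 of 13 were called lower, against 27.7% of all genes, and 2 higher. Tm7sf2, a sterol reductase, fell from 28.9 ± 2.81 TPM in sham to 20.98 ± 1.76 TPM in vehicle mice (-0.44, SE 0.08, adjusted p = 2.1e-05, limma). Msmo1, the methyl sterol oxidase that acts after Cyp51 and the sterol reductase step, fell by 0.43 (SE 0.09, adjusted p = 0.00042, limma), from a mean of 117 to 87.2 TPM. Mvd, which makes isopentenyl diphosphate, fell by 0.41 (SE 0.10, adjusted p = 0.0011). The 2 that rose were Lbr (0.25, adjusted p = 0.0071), a sterol reductase that also anchors chromatin at the nuclear envelope, and Ebp (0.19, adjusted p = 0.0080), a sterol isomerase. Ggps1, which leads to prenylation and not to sterols, and 0610007P14Rik, also named Erg28, did not pass.

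With PLX3397, 1 of these 13 was called higher than vehicle, namely Acat2 (0.21, adjusted p = 0.039, limma), the thiolase at the entry, against 3.23% of all genes called higher and 9.89% called in all, so that this share is near that of all genes. With Anakinra none was called (limma), and Pmvk and Ebp, 2 of the 13, had an unadjusted p under 0.05, a share near the 12.4% of all genes. With PLX3397+Anakinra 4 were called higher, against 7.88% of all genes: Mvd (0.30, adjusted p = 0.027), Tm7sf2 (0.23, adjusted p = 0.024), Hsd17b7 (0.20, adjusted p = 0.038) and Nsdhl (0.19, adjusted p = 0.031). None of the 13 was called lower in any of the 3. Tm7sf2 stood at 24.8 ± 0.85 TPM with PLX3397+Anakinra, between vehicle and sham. This count of 4 for the combination was 0 without vehicle mouse J19B or combination mouse J10, 1 without vehicle mouse J01B or J20B, 2 without combination mouse J03 or J17, and 7 without vehicle mouse J17B. For PLX3397 the count of 1 was 0 without vehicle mouse J18B or J19B or without PLX3397 mouse J01 or J19, and 2 without PLX3397 mouse J12.

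**Figure D3:**
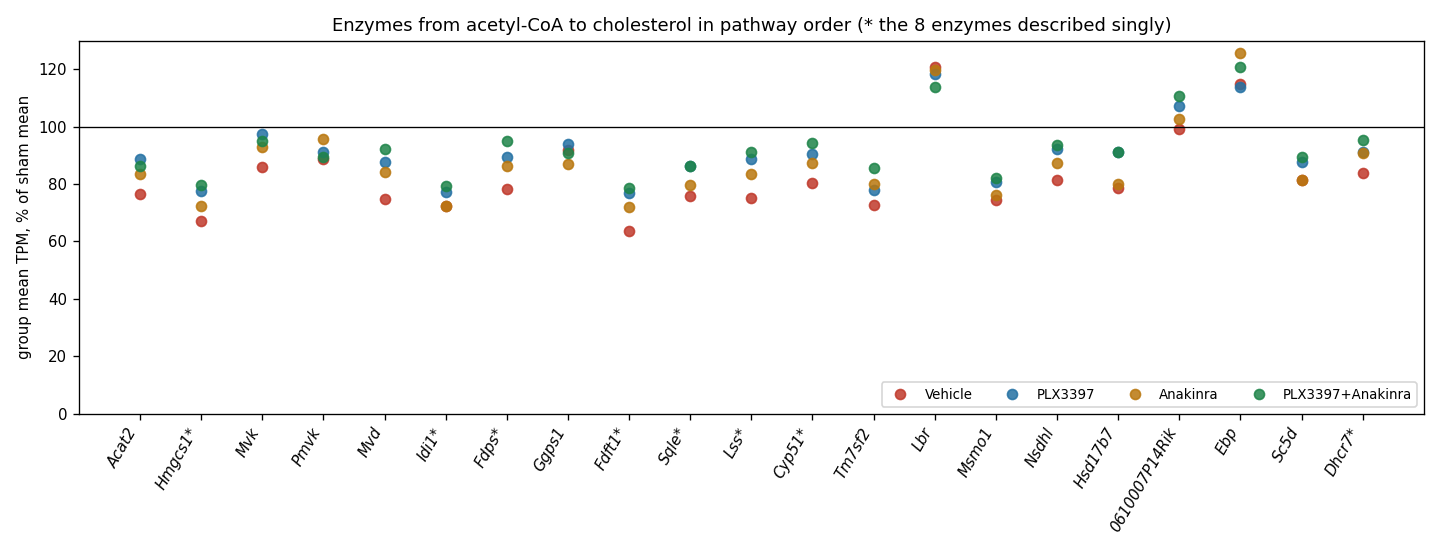
Group mean TPM of 21 pathway enzymes as a percentage of their sham mean (vertical axis, line at 100), in pathway order, with asterisks on the 8 enzymes described singly and 1 color per TBI group. Vehicle means lie below 100% for 19 of 21 enzymes, and Lbr and Ebp lie above it in every group.

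The genes that sense sterols and bring them into the cell were read from a list of 11. SREBP2 itself, encoded by Srebf2, fell by 0.60 after TBI (SE 0.07, adjusted p = 6.7e-08). Its target Insig1, which holds SREBP in the endoplasmic reticulum, fell by 0.69 (SE 0.06, adjusted p = 6.5e-10), from 91.1 ± 5.76 TPM in sham to 56.2 ± 4.79 TPM in vehicle mice. Stard4, a sterol carrier, fell by 0.66 and Scap, the sterol sensor that escorts SREBP, by 0.20. The 3 genes of this list that rose after TBI were Npc2 (1.48) and Npc1 (0.48), which release cholesterol from lysosomes, and Srebf1 (0.62), which encodes the factor for fatty acid synthesis. With PLX3397 over vehicle, Insig1 (0.32) and Stard4 (0.24) rose and Npc2 (-0.47) fell. With PLX3397+Anakinra Insig1 (0.37), Stard4 (0.31) and Srebf2 (0.29) rose, and Npc2 (-0.68) and Npc1 (-0.24) fell. None of the 11 was called with Anakinra, where Insig1 had the largest difference of the list (0.25, adjusted p = 0.078, limma) and 2 of the 11, Insig1 and Npc1, had an unadjusted p under 0.05, against 12.4% of all genes. Over all genes 54.3% were called after TBI, 9.89% with PLX3397 and 17.5% with PLX3397+Anakinra, beside 7, 3 and 5 of the 11 here.

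Genes of cholesterol export, storage and turnover moved mostly in the opposite direction. Of 13, 9 rose and 4 fell after TBI, against 54.3% of all genes called in either direction and 27.7% called lower. Abca1, the exporter that loads apolipoproteins, rose by 2.29 (SE 0.08) and Apoe, the main apolipoprotein of the brain, by 1.72 (SE 0.09), from 2507 ± 78.0 TPM in sham to 8335 ± 989 TPM in vehicle mice. Soat1, which esterifies cholesterol for storage, rose by 1.21, Mylip, a ubiquitin ligase that is a target of sterol-sensing LXR receptors, by 1.16, and Ch25h, which makes 25-hydroxycholesterol, by 3.71 from a sham mean of 1.05 TPM. Cyp46a1, the neuronal hydroxylase that clears cholesterol from the brain, and the transporter Abcg4 each fell by 0.47.

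The same 13 genes were read in the drug groups. Of all genes, 9.89% were called over vehicle with PLX3397, 0.116% with Anakinra and 17.5% with PLX3397+Anakinra. With PLX3397, 6 of the 13 fell: Ch25h (-1.31), Mylip (-0.69), Abca1 (-0.61), Apoe (-0.61), Soat1 (-0.41) and Abcg1 (-0.23). With PLX3397+Anakinra the 6 that fell were Ch25h (-1.20), Abca1 (-0.95), Apoe (-0.94), Mylip (-0.83), Soat1 (-0.54) and Abcg1 (-0.21), while Cyp46a1 (0.28) and Abcg4 (0.25) rose. Apoe then stood at 5465 ± 607 TPM with PLX3397 and at 4343 ± 486 TPM with the combination. None of the 13 was called with Anakinra, where Apoe (-0.39, adjusted p = 0.063) and Abca1 (-0.32, adjusted p = 0.086) had the largest differences.

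Of 10 genes of fatty acid synthesis and desaturation, which SREBP1 drives, 3 rose (Elovl5 by 0.85, Fads2 by 0.51 and Scd2 by 0.20) and 4 fell after TBI. The share of all genes called was 54.3% in either direction and 27.7% lower, so that these counts are not far from it. None of the 10 was called for any of the 3 treatments over vehicle, against 9.89% of all genes with PLX3397, 0.116% with Anakinra and 17.5% with PLX3397+Anakinra.

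**Figure D4:**
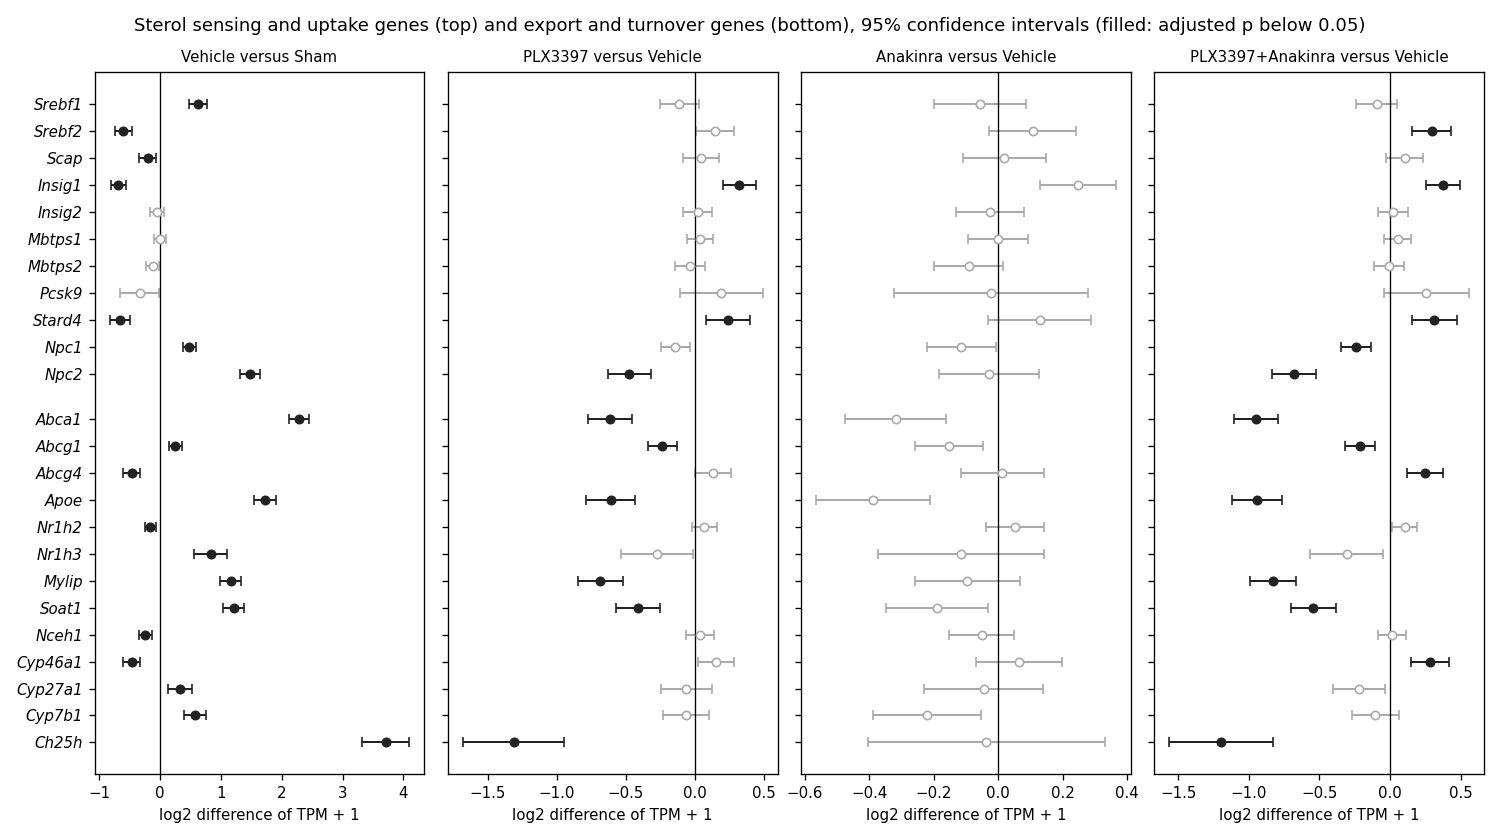
Log2 differences of TPM + 1 (points) with 95% confidence intervals from limma for 11 genes of sterol sensing and uptake (upper rows) and 13 of export and turnover (lower rows), filled black where the adjusted p was below 0.05 and open grey where it was not. Horizontal scales differ between the panels. Insig1 and Stard4 are left of 0 after TBI and right of 0 with PLX3397 and PLX3397+Anakinra, and Abca1, Apoe, Mylip, Soat1 and Ch25h show the reverse.

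Marker levels of the cell types in the tissue moved with the same comparisons. Of 9 neuronal markers, 8 fell after TBI (all but Gad2), against 27.7% of all genes called lower. Their summed level was 7850 to 8230 TPM in sham mice and 4612 to 5508 TPM in vehicle mice. It was 5194 to 6292 TPM with PLX3397, 4800 to 5427 TPM with Anakinra and 5684 to 6071 TPM with PLX3397+Anakinra, and 2, 0 and 7 of the 9 markers rose over vehicle in these groups. Of all genes, 3.23% were called higher with PLX3397 and 7.88% with PLX3397+Anakinra, and 0.116% were called in either direction with Anakinra. The sum of the 8 enzymes was 6.81 ± 0.41% of the neuronal marker sum in sham mice, 8.06 ± 0.30% in vehicle mice, 8.20 ± 0.43% with PLX3397, 8.53 ± 0.42% with Anakinra and 8.04 ± 0.52% with PLX3397+Anakinra. The mean ratio to neuronal markers was thus higher after TBI than in sham mice, and the 4 TBI groups overlapped. Against the oligodendrocyte marker sum the enzymes were at 9.70 ± 0.74% in sham, 5.27 ± 0.46% in vehicle, 5.75 ± 0.33% in PLX3397, 6.34 ± 0.37% in Anakinra and 6.32 ± 0.48% in PLX3397+Anakinra mice. Against the astrocyte marker sum they were at 23.8 ± 1.93%, 8.24 ± 1.32%, 9.63 ± 0.76%, 9.53 ± 0.49% and 10.03 ± 0.83% in the same order. Both glial ratios had thus their lowest mean in vehicle mice, and none of these ratios was tested. The astrocyte markers rose unevenly after TBI, from 4.06 on the log2 scale for Gfap and 2.03 for Aqp4 to 0.22 for Slc1a2. Aldoc was not called (0.06). The neuronal markers moved unevenly as well, from -0.79 for Camk2a to -0.03 for Gad2. The same held for the oligodendrocyte markers, from 0.81 for Cldn11 to -0.15 for Opalin. A ratio to any of these sums is therefore not a level per cell. No marker of these lists was at 0 in all mice of a group.

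Glial markers went the other way after TBI, where 54.3% of all genes were called in either direction and 27.7% were called lower. Of 11 oligodendrocyte markers 8 rose, from sums of 5562 to 6047 TPM in sham to 7171 to 7884 TPM in vehicle mice, and of 9 astrocyte markers 8 rose, from 2233 to 2501 TPM to 4407 to 5546 TPM. All 9 markers of oligodendrocyte precursors rose too, from 361 to 389 TPM to 582 to 663 TPM. All 8 microglial markers rose, from 324 to 341 TPM to 1197 to 1525 TPM, as did all 10 markers of activated phagocytes, from 76.6 to 81.0 TPM to 3827 to 8551 TPM. Thus the fall of the enzymes went with a lower neuronal sum and higher sums of all 4 glial lists. Of 5 vessel markers 4 rose, from 166 to 182 TPM to 205 to 245 TPM, and none of 5 red blood cell genes passed (2142 to 3195 TPM in sham, 1507 to 4406 TPM in vehicle).

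With PLX3397, alone or combined, the lists of immune cells and red blood cells fell. The share of all genes called over vehicle was 9.89% with PLX3397, 0.116% with Anakinra and 17.5% with PLX3397+Anakinra. All 8 microglial markers fell over vehicle with PLX3397 (to 509.9 to 775 TPM) and with PLX3397+Anakinra (466 to 621 TPM), and none with Anakinra (1297 to 1474 TPM). Of the 10 markers of activated phagocytes, 9 fell with PLX3397 (2672 to 4886 TPM) and 10 with the combination (1453 to 2134 TPM). All 5 red blood cell genes fell in both groups as well (606 to 1072 TPM and 725 to 951 TPM). Of the 9 precursor markers 4 fell in each, while oligodendrocyte, astrocyte and vessel markers changed in at most 2 genes per list. What part these shifts in marker levels have in the levels of the 8 enzymes was not tested.

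**Figure D5:**
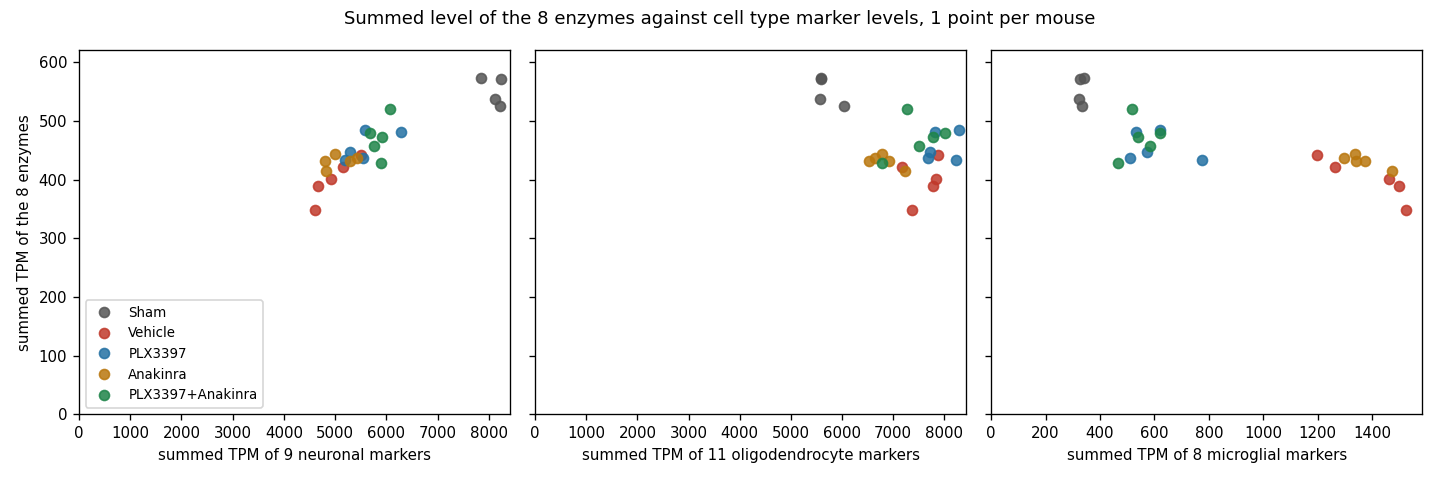
Summed TPM of the 8 enzymes (vertical axis) against the summed TPM of neuronal, oligodendrocyte and microglial markers (horizontal axes), 1 point per mouse, colored by group. Sham mice lie highest on the vertical axis, with the highest neuronal and the lowest microglial sums, and PLX3397 and PLX3397+Anakinra mice lie left of vehicle and Anakinra mice on the microglial axis.

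Within groups the 8 enzymes did not vary as 1 unit. Each enzyme was centred on its group means, and the 24 libraries were compared for its likeness to the mean of the other 7, as a description without a test, since all values of a mouse share its library. Pearson's r was 0.89 for Hmgcs1, 0.80 for Sqle, 0.79 for Idi1 and 0.76 for Cyp51. It was 0.47 for Fdft1, 0.46 for Fdps, 0.38 for Lss and 0.23 for Dhcr7. The closest pairs were Hmgcs1 and Idi1 (r = 0.84) and Idi1 and Cyp51 (r = 0.84), whereas Fdps and Dhcr7 were the least alike (r = -0.18). Of the 28 pairs 9 exceeded 0.5, and the median r was 0.42. Vehicle mouse J19B and combination mouse J09 were low for their groups over the 8 enzymes, and vehicle mouse J17B and combination mouse J17 were high.

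Among all other genes tested, those whose centred values were most like the mean of the 8 enzymes over the 24 libraries included Lrch2 (r = 0.91), Lancl2 (0.91), Dpp10 (0.90), Msmo1 (0.89), Mtpn (0.88), Klhl23 (0.88), Insig1 (0.88), Ppp3cb (0.87) and Clcn4 (0.86). Msmo1 and Insig1 are of the lists above, and the others are of none of them. Of the 13 other pathway enzymes Sc5d was at 0.78, Ggps1 at 0.69, Acat2 at 0.63, Hsd17b7 at 0.46, Nsdhl at 0.44 and Mvd at 0.41. Lower values were 0.40 for 0610007P14Rik, 0.16 for Tm7sf2, 0.02 for Pmvk, -0.11 for Lbr and -0.18 for Ebp, so that likeness was uneven among them. Of the genes named as most alike only Insig1 was called for any treatment over vehicle, namely for PLX3397 (adjusted p = 0.00032) and PLX3397+Anakinra (adjusted p = 2.9e-05, limma).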

How the data were processed

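RNA from injured and surrounding brain tissue was sequenced in paired-end mode for 24 mice at 5 dpi, with 1 library per mouse (5 per TBI group, 4 sham), and groups follow the treatments named in the labels. The authors mapped the reads in CLC Genomics Workbench and annotated them with mm10 (GRCm38 in the submitters' processing notes), and they deposited TPM that sum to 1000000 per library. TPM keep no read totals, so the depth per library is unknown, and 22160 to 23249 genes were above 0. A second deposited table holds the same TPM rounded to 3 decimals. The third, filtered table, which also holds the authors' own p-values and F values, was not used.

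Tests used log2(TPM + 1) and genes whose mean over all libraries was 0.5 TPM or more, with fold changes of low genes understated by the pseudocount. limma 3.58.1 under R 4.3.3 was fitted with 1 mean per group, all 24 libraries and a variance trend, and p-values were adjusted by Benjamini-Hochberg over 17267 genes. The script was tested on simulated data. Genes named singly are the 8 enzymes, genes of the lists of pathway, sensing, export and marker genes, and those among the 10 most alike within groups. Some genes of these lists are not reported here. The members and lists were chosen with earlier results of these data known. Alternatives were another pseudocount, other filters, rescaled TPM, the rounded table, no variance trend, library weights, only the compared groups, other call rules and leaving out each mouse. RefSeq windows and GENCODE vM21 positions are of GRCm38. No 2 libraries were identical.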

Additional observations from a re-analysis of the deposited data

Results flagged for a closer look

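In 4 of 40 groups of mice (8 enzymes in 5 groups), 1 mouse lay further from the others than Dixon's test allows at the 95% level, and chance gives about 1 in 20 groups. Fdps was at 89.5 TPM in Anakinra mouse J21, against 76.7 to 79.5 TPM in the other 4. Fdft1 was at 23.1 TPM in Anakinra mouse J05, against 25.1 to 25.9 TPM. Sqle was at 40.9 TPM in vehicle mouse J19B, against 48.2 to 49.9 TPM. Lss was at 16.8 TPM in PLX3397+Anakinra mouse J09, against 18.3 to 18.5 TPM. By this test no mouse was far from its group in more than 1 of the 8 enzymes. The test reads 1 enzyme at a time, and vehicle mouse J19B was low for its group over the 8 enzymes, as given above.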

How the results depend on the processing

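Of 2304 recomputed differences of single enzymes, 2223 kept their direction and their side of the threshold, 55 lost a call, 12 gained one and 14 turned in direction, and all 256 for vehicle versus sham were kept. The depth is unknown, so how far it limits a value could not be computed. No paired analysis was made because no full animal label occurs in more than 1 group. Without the letter B, vehicle labels J01B, J19B and J20B match PLX3397 mice J01, J19 and J20, and J17B matches combination mouse J17. Whether these mice are related is not given. Causes of the changes were not tested.

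With only the compared groups in the fit, PLX3397+Anakinra was called for 4 of the 8 enzymes and 2 of the other 13. PLX3397 was called for 0 of the other 13 with no filter on low values or no variance trend. With library weights Anakinra gained 1 call (Fdft1), and PLX3397+Anakinra was called for 7 of the other 13. By groups that do not overlap, the counts were 1 for Anakinra and 4 for PLX3397+Anakinra over vehicle, and 1 for PLX3397+Anakinra over Anakinra. By the volcano criteria of the study (a 2-fold ratio and a difference above 4 TPM at an unadjusted p below 0.05), 0 of the 8 passed in any comparison with vehicle or sham. Leaving out 1 mouse gave 2 to 6 of the 8 for PLX3397 and 3 to 7 for PLX3397+Anakinra over vehicle, 0 for Anakinra, and 8 for vehicle versus sham. Against sham it gave 4 to 6 for PLX3397, 6 to 8 for Anakinra and 3 to 5 for PLX3397+Anakinra. For the other 13 it gave 10 to 11 for vehicle versus sham, 0 to 2 for PLX3397 and 0 to 7 for PLX3397+Anakinra. The F-test called 7 or 8, and the interaction and the comparisons of the combination with each single drug 0. Apart from the fits without vehicle mouse J19B, the share of all genes called is not given for the changed fits. Their counts can therefore not be set beside the shares of the main fit. Rescaling moved the median of all genes by less than 0.1 and the share of higher calls from 60% to 45.5% for Anakinra over vehicle and from 36.6% to 23.0% for PLX3397+Anakinra over Anakinra.

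The differences that turned were near 0 and uncalled. For PLX3397+Anakinra minus PLX3397, leaving out 1 mouse gave -0.018 to 0.043 for Sqle, -0.0036 to 0.062 for Lss, -0.032 to 0.11 for Idi1 and -0.017 to 0.069 for Hmgcs1, and rescaling gave -0.0015 for Sqle. For Anakinra minus vehicle it gave -0.078 to 0.076 for Idi1.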
